A study of Homo sapiens and Mus musculus with 213 samples.

Results

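The TGF-beta and BMP signalling genes are described here in RNA-seq of human HEK293T cells. They were chosen by a rule on gene symbols that uses no measured value, although earlier results of these data were known when it was set. The rule takes protein-coding genes of GENCODE named for TGF-beta, BMP, GDF, activin and inhibin ligands, for their receptors, for the SMAD proteins, and for the antagonists noggin, chordin and gremlin. The rule found 53 members among the 58336 genes listed, and 46 of the 53 had a mean of at least 10 normalized counts over the 9 libraries and were tested. HEK293T is an established, immortalized line from human embryonic kidney. MYC WT cells are unedited and keep the natural G-quadruplex (G4) motif upstream of MYC, a site at which guanine-rich DNA can fold into a structure with stacked G-tetrads. MYC MUT cells were edited with CRISPR/Cas9 so that the guanine runs of this motif are mutated and the structure does not form. SWP cells were edited at the same place and hold a G4 motif from another gene instead. No cells received a treatment, and each line has 3 libraries labelled as biological replicates. The edited lines are homozygous clones grown from sorted single cells, and the sources used here do not say how many clones the 3 libraries of a line represent. An effect of the edit and a difference between clones cannot be told apart in this design. The column names of the MYC WT values also carry a sequencing pool that those of MYC MUT and SWP do not, so that pool and line cannot be told apart for comparisons with MYC WT.

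TGF-beta family ligands are secreted as dimers and bind a complex of type II and type I receptors, which are serine/threonine kinases. The type II receptor activates the type I receptor, which phosphorylates receptor-regulated SMADs, and these enter the nucleus with SMAD4 and change transcription. TGF-beta and activin signal mostly through SMAD2 and SMAD3, and BMPs mostly through SMAD1, SMAD5 and SMAD9. SMAD6 and SMAD7 inhibit the pathway from inside the cell, while noggin, chordin and gremlins bind BMPs outside it. BMP7 and its relatives are known for roles in kidney development.

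The files hold 65024354 to 98497026 counted reads per library. MYC, the edited gene's own transcript, stood at 20020.3, 28396 and 21580.1 normalized counts in MYC WT, 10693, 11176 and 12399.8 in MYC MUT and 14480.1, 24743 and 25245 in SWP. All MYC MUT libraries lay below all others, at 49.0% of the MYC WT mean (log2 fold change -1.02 ± 0.19, SE, adjusted p = 0.00182), and SWP overlapped MYC WT (log2 fold change -0.15 ± 0.19, SE, adjusted p = 0.712). Of the 9 genes listed as HEK293T markers, PAX8 averaged below 1 normalized count in every line. The other 8 averaged between 150.0 (LHX1 in SWP) and 58968 (VIM in MYC WT) normalized counts. In MYC MUT against MYC WT, PAX2 (log2 fold change 0.69), LHX1 (0.76), NEFL (1.07) and KRT8 (0.77) were called higher and NEFM (-0.58) lower. In SWP against MYC WT, NEFL (-0.54) and KRT8 (-1.27) were called lower. VIM, KRT18 and CDH2 were called in neither comparison. KRT18 (0.47, adjusted p = 0.000524) and CDH2 (0.46, adjusted p = 0.000452) passed the p-value but not the fold threshold of 0.5 in MYC MUT against MYC WT. CDH2 did so in SWP against MYC WT too (0.36, adjusted p = 0.00735). The part of these markers in the results below was not tested. Blood and pluripotency markers averaged below 1 normalized count. Among the fibroblast and liver markers, DCN and ALB averaged at most 3.90 and APOA1 at most 12.3, while PDGFRA averaged 92.6, 117 and 93.4 and LUM 29.1, 35.6 and 61.3 in MYC WT, MYC MUT and SWP. LUM was called higher in SWP than in MYC WT (log2 fold change 1.02 ± 0.23, SE, adjusted p = 0.016), and its part in the results below was not tested. Of the 3 endothelial markers, PECAM1 and CDH5 averaged at most 2.24, and VWF averaged 4.49, 30.8 and 5.04 in MYC WT, MYC MUT and SWP. Replicate 1 of MYC WT and replicate 1 of SWP stood farthest from the other libraries of their lines.

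In MYC MUT against MYC WT, ligands and receptors moved in both directions, while in SWP against MYC WT every called member was lower. A member was called where limma with Benjamini-Hochberg adjustment over 20884 genes gave an adjusted p below 0.05 with a change of more than 0.5 in log2(normalized count + 1), a scale on which low counts show a smaller change than their ratio. In MYC MUT against MYC WT, 13 of the 46 members tested were called, which is 28.3%, against 21.4% of all genes tested. Of these, 8 were higher (TGFB1, TGFB3, BMP5, INHBA, INHBB, ACVR1C, ACVRL1 and TGFBR2), with 11.3% of all genes called upward, and 5 were lower (BMP2, INHBE, TGFBR3, SMAD9 and NOG), with 10.1% called downward. The 3 libraries of both lines did not overlap for 26 of the 46 members, or 56.5%, against 52.3% of all genes. In SWP against MYC WT, 5 members (10.9%) were called, against 5.13% of all genes, and all were lower: BMP2, BMP3, GDF6, ACVRL1 and TGFBR2. The share of all genes called downward was 2.98%. Limma called 0 members upward, where 2.15% of all genes were, although 4 (ACVR1C, ACVR2A, BMP8B and SMAD1) were higher at an unadjusted p under 0.05, and edgeR and DESeq2 each called 1, ACVR1C. The groups did not overlap for 12 of the 46 members (26.1%), against 24.6% of all genes.

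MYC MUT against SWP is the test of the difference between the edited lines. In it, 14 members (30.4%) were called, against 20.6% of all genes. Of these, 12 were higher in MYC MUT, where 12.3% of all genes were called upward: TGFB1, BMP2, BMP3, BMP5, BMP8A, GDF6, GDF15, INHBA, INHBB, ACVR1C, ACVRL1 and TGFBR2. The other 2, TGFBR3 and NOG, were lower, where 8.31% of all genes were called downward. No overlap between MYC MUT and SWP was seen for 27 of the 46 members (58.7%), against 52.3% of all genes. The median log2 fold change of the 46 members was 0.18 in MYC MUT against MYC WT, -0.03 in SWP against MYC WT and 0.24 in MYC MUT against SWP, where the medians over all genes tested were -0.0034, -0.06 and 0.04. The comparisons with MYC WT use the same 3 control libraries, so their agreement is not independent. In all, 17 members were called in at least 1 comparison and 29 in none. With 3 libraries against 3, the smallest p of an exact two-sided permutation test is 0.1, which every member without overlap had. P-values measure the spread between these libraries, which may in part be technical. In bulk RNA, fewer cells with a transcript and less transcript per cell cannot be told apart.

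**Figure D1:**
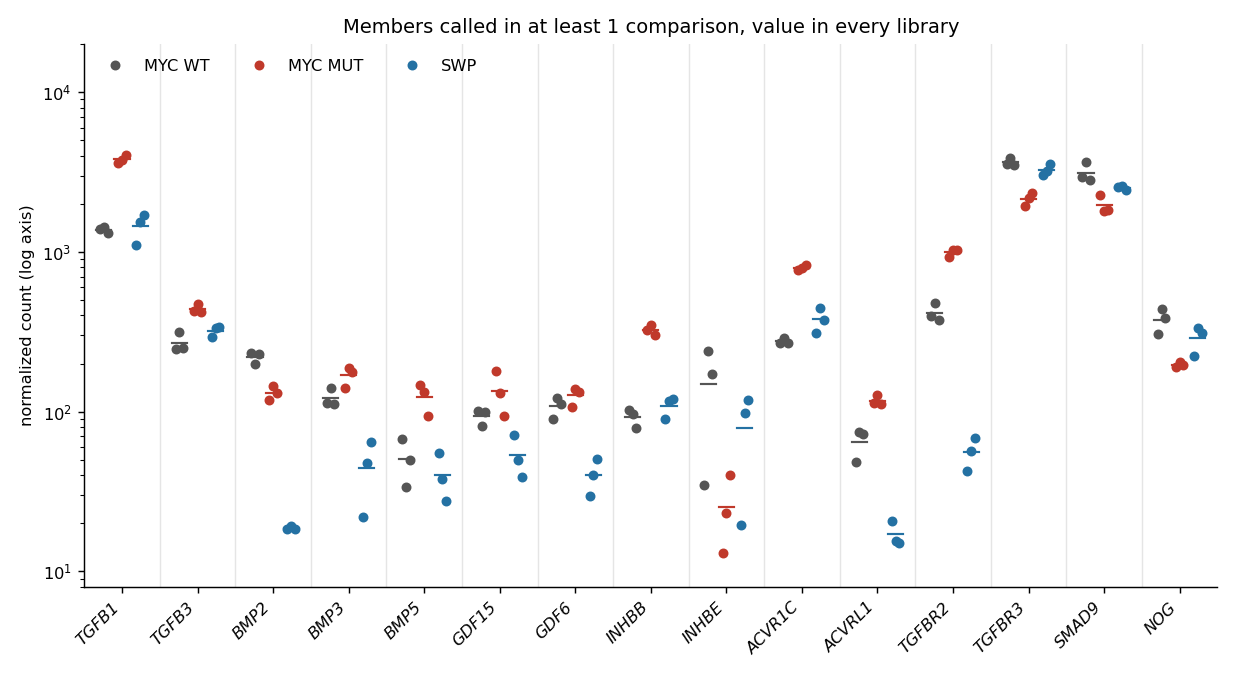
Normalized counts (log axis) of the 15 members called in at least 1 comparison with a mean of at least 50 in 1 line. Each point is 1 library, the short line is the mean of 3 libraries, and colours mark MYC WT, MYC MUT and SWP. TGFBR2, ACVRL1 and BMP2 fall to the lowest level in SWP, while TGFB1, INHBB and ACVR1C stand apart in MYC MUT, and INHBE is spread widely within MYC WT and SWP.

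Promoters of 44 members were found among RefSeq windows of 300 bases (250 before and 50 after the start, GRCh38.p14, for a gene with several starts the one nearest to the GENCODE start), and the 9 without a window included the called members ACVRL1, BMP2, BMP3, GDF6, INHBE and NOG. A G4 motif, meaning 4 runs of at least 3 guanines with 1 to 7 bases between runs on either strand, was found in 19 of the 44 (43.2%), against 24.1% of all 27305 genes with a window. The E-box CACGTG, the sequence that MYC with its partner MAX prefers, was found in 6 (13.6%), against 7.42%, and GGCGCC, a GC-rich element of BMP target genes, in 15 (34.1%), against 19.0%. The median GC content was 66.5% in the members and 58.3% in all windows, and its part in these shares was not tested. The 27305 genes with a window were not limited to protein-coding genes, while every member is protein-coding. The part of this difference in the shares was not tested either. Of the 17 members called in a comparison, 11 had a window, and 5 of these held the G4 motif, 2 CACGTG and 1 GGCGCC. The start used lay away from the GENCODE start in TGFBR3 (20184 bases), GDF15 (11427), INHBA (2744) and SMAD9 (649). The 250 bases before the start are shown for 4 called members: INHBB and TGFB1, a subunit and a ligand that stood high in MYC MUT and have the G4 motif, and TGFB3 and SMAD9, the called members with CACGTG. Sequences run from 5′ to 3′ on the strand of the gene, and capitals mark the motifs found. Capital runs of C are G4 motifs on the opposite strand.
INHBB (chr2:120345886-120346135, plus strand): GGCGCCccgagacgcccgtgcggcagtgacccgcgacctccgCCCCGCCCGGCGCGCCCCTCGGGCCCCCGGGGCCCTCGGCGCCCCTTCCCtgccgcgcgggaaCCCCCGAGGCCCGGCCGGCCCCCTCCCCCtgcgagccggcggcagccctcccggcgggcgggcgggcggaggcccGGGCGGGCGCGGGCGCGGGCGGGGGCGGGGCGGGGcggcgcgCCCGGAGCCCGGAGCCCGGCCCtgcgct
TGFB1 (chr19:41353923-41354172, minus strand): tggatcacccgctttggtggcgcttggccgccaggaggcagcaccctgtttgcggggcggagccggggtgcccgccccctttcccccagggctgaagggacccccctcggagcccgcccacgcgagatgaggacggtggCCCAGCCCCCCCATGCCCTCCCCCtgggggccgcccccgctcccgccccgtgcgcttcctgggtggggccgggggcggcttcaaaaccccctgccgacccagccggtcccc
TGFB3 (chr14:75983012-75983261, minus strand): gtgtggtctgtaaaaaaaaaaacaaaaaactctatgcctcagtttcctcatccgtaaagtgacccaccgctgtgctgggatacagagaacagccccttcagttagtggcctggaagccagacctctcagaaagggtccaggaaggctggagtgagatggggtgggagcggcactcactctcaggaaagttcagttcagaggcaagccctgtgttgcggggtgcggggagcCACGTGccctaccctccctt
SMAD9 (chr13:36920239-36920488, minus strand): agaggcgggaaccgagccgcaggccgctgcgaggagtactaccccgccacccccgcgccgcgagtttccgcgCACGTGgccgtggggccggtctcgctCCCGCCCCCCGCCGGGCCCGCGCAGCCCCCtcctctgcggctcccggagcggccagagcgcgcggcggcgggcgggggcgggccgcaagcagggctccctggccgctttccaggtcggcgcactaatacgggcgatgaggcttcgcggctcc
The INHBB window held 15 overlapping G4 matches, on both strands, and GGCGCC, with a GC content of 88.7% over the 300 bases. The G4 motif starts at base -111 in TGFB1 and at -152 in SMAD9, counted from the start. CACGTG starts at -178 in SMAD9 and -20 in TGFB3. In the window of TGFBR2, the receptor with the largest difference between the edited lines, none of the 3 motifs was found, and its GC content was 61.7%. These matches are letters in a window, absence says only that the letters are not in it, and no binding or folding was measured on them here.

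Among the TGF-beta ligands, TGFB1 and TGFB3 were higher in MYC MUT, and TGFB2 was not called. TGFB1 (chr19:41301587-41353922, hg38), the most widely expressed TGF-beta, stood at 1381, 1430.0 and 1316 normalized counts in MYC WT, 3599, 3736 and 4067 in MYC MUT and 1102, 1529.7 and 1702 in SWP. The MYC MUT libraries lay above all others, while SWP surrounded MYC WT. The MYC MUT mean was 2.76 times that of MYC WT (log2 fold change 1.46 ± 0.13, SE, adjusted p = 1.41e-05) and 2.63 times that of SWP (log2 fold change 1.42 ± 0.13, SE, adjusted p = 1.34e-05), and SWP against MYC WT gave 0.05 ± 0.13 (adjusted p = 0.878). HNRNPUL1 and CCDC97 overlap TGFB1 on the opposite strand, and HNRNPUL1 averaged 41211, 28388 and 40759 normalized counts in MYC WT, MYC MUT and SWP. Its reads could enter TGFB1 if the counting ignored strand, which the sources used here do not state, although the library kit was directional. HNRNPUL1 was lower and TGFB1 higher in MYC MUT, and the part of HNRNPUL1 reads in the TGFB1 values was not tested.

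TGFB3, a ligand known for palate and lung development, stood at 247, 315 and 248 normalized counts in MYC WT, 428, 473 and 419 in MYC MUT and 291, 332 and 338 in SWP. MYC MUT again lay above all other libraries, and SWP overlapped MYC WT. The mean was 1.63 times that of MYC WT (log2 fold change 0.71 ± 0.12, SE, adjusted p = 0.0011). Against SWP the log2 fold change of 0.46 ± 0.12 had an adjusted p of 0.0135 but stayed under the fold threshold. IFT43, a cilium gene on the opposite strand, overlaps TGFB3 and averaged between 1296 and 1364 in the 3 lines. TGFB2 averaged 111, 134 and 112 in MYC WT, MYC MUT and SWP, and its adjusted p was 0.207 in MYC MUT and 0.967 in SWP.

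Of the 8 BMP ligands tested, BMP2 and BMP3 were called lower in SWP, and BMP2 lower and BMP5 higher in MYC MUT. BMP2 (chr20:6767686-6780246), a bone-inducing ligand that signals through BMPR1A and BMPR1B, stood at 233, 199 and 231 normalized counts in MYC WT, 117, 145 and 131 in MYC MUT and 18.3, 19.3 and 18.5 in SWP. The 3 lines did not overlap at any point, with MYC WT highest and SWP lowest. SWP held 8.47% of the MYC WT mean (log2 fold change -3.49 ± 0.15, SE, adjusted p = 1.53e-07) and MYC MUT 59.3% (log2 fold change -0.75 ± 0.15, SE, adjusted p = 0.00243). BMP2 was the one member called lower in both edited lines, and MYC MUT exceeded SWP (log2 fold change 2.74 ± 0.15, SE, adjusted p = 2.52e-07).

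BMP3, known as an antagonist-like BMP in bone, stood at 113, 141 and 112 normalized counts in MYC WT, 141, 189 and 176 in MYC MUT and 21.8, 47.5 and 64.6 in SWP. SWP lay below all other libraries, while MYC MUT and MYC WT overlapped. The SWP mean was 36.6% of MYC WT (log2 fold change -1.55 ± 0.32, SE, adjusted p = 0.0102), and the difference between MYC MUT and SWP was 2.01 ± 0.32 (adjusted p = 0.000537). In MYC MUT against MYC WT, BMP3 gave 0.46 ± 0.32 (adjusted p = 0.277). BMP5, a relative of BMP7 that signals through ACVR1, stood at 67.7, 33.7 and 50.1 normalized counts in MYC WT, 146, 133 and 93.5 in MYC MUT and 55.0, 37.9 and 27.7 in SWP. All MYC MUT values were above all others, and SWP overlapped MYC WT. The MYC MUT mean was 2.46 times that of MYC WT (log2 fold change 1.31 ± 0.30, SE, adjusted p = 0.00562) and 3.09 times that of SWP (log2 fold change 1.63 ± 0.30, SE, adjusted p = 0.00153).

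BMP7, the most abundant BMP of these cells per kb of exon, differed less. It stood at 5330.3, 6225 and 5438 normalized counts in MYC WT, 7007, 7308 and 7498 in MYC MUT and 4929.8, 5423 and 5903 in SWP, so that MYC MUT lay above the other libraries, but the log2 fold change of 0.36 ± 0.08 (adjusted p = 0.00546) was under the fold threshold. The 146 other tested genes within 10 Mb of it on chromosome 20 showed a median change of 0.36 (log2) in the same comparison, and their part in the result was not tested. BMP6 (0.40 ± 0.13, adjusted p = 0.0317) and BMP4 (-0.39 ± 0.14, adjusted p = 0.0481) likewise passed the p-value but not the fold in MYC MUT. BMP8A, at 16.2, 25.9 and 10.7 on average in MYC WT, MYC MUT and SWP, was called in MYC MUT against SWP (log2 fold change 1.24 ± 0.29, SE, adjusted p = 0.00592). Its near-identical neighbour BMP8B averaged 883, 993 and 1126 and was not called, and reads of this pair can be placed on either copy.

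Of the 6 GDF ligands tested, limma called 0 in MYC MUT against MYC WT, and edgeR and DESeq2 also called 0. In limma, 2 (GDF9 and GDF11) had an unadjusted p under 0.05. GDF11 (log2 fold change 0.24 ± 0.08, SE) also had an adjusted p of 0.0381 and stayed under the fold threshold. GDF6, a ligand of joint and eye development, stood at 90.2, 121 and 112 normalized counts in MYC WT, 107, 138 and 133 in MYC MUT and 29.8, 40.1 and 50.7 in SWP. SWP lay below every other library, and MYC MUT overlapped MYC WT. The SWP mean was 37.3% of MYC WT (log2 fold change -1.42 ± 0.21, SE, adjusted p = 0.00161), and MYC MUT exceeded SWP by 1.65 ± 0.21 on the log2 scale (adjusted p = 0.000132). GDF6 lies on chromosome 8, as MYC does, and its tested neighbours within 10 Mb had medians of -0.09 in SWP and -0.57 in MYC MUT against MYC WT, where GDF6 itself had -1.42 and 0.23.

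GDF15, a stress-induced ligand that acts on appetite through GFRAL, stood at 101, 80.8 and 99.2 normalized counts in MYC WT, 178, 131 and 94.5 in MYC MUT and 71.0, 49.8 and 39.2 in SWP. SWP was below both other lines without overlap, and the lowest MYC MUT library lay within the MYC WT range. The difference between MYC MUT and SWP was 1.32 ± 0.26 (adjusted p = 0.00225). In SWP against MYC WT the log2 fold change was -0.84 ± 0.26 with an adjusted p of 0.0669, and 0.0078 with the replicate number as a block, so that the block turns it into a call. Without replicate 1 of SWP the adjusted p was 0.0171. GDF11, the most abundant GDF of these cells per kb of exon, stood at 3761, 4454 and 3805 on average in MYC WT, MYC MUT and SWP. GDF9, a ligand known from the oocyte, gave 0.54 ± 0.20 in MYC MUT against SWP, with an adjusted p of 0.0503, and of 0.0332 with the block. It averaged 60.6, 81.6 and 55.6 in MYC WT, MYC MUT and SWP. UQCRQ, which overlaps GDF9 on the opposite strand, averaged 10277, 11141 and 10338. The part of UQCRQ reads in the GDF9 values was not tested.

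Activin and inhibin subunits form dimers in which beta subunits paired with each other make activins and an alpha subunit paired with a beta subunit makes an inhibin. INHBB (chr2:120346136-120351803), the beta subunit of activin B, stood at 103, 96.5 and 78.9 normalized counts in MYC WT, 323, 349 and 303 in MYC MUT and 89.4, 116 and 119.9 in SWP. The 3 MYC MUT libraries were well above the other 6, which overlapped between MYC WT and SWP. The MYC MUT mean was 3.51 times that of MYC WT (log2 fold change 1.80 ± 0.16, SE, adjusted p = 1.03e-05) and 3.00 times that of SWP (log2 fold change 1.58 ± 0.16, SE, adjusted p = 1.97e-05). INHBB had the largest rise among members in MYC MUT against MYC WT. INHBA, the subunit of activin A, was low, at 12.3, 21.3 and 15.4 normalized counts in MYC WT, 22.2, 39.9 and 35.1 in MYC MUT and 8.02, 12.6 and 9.23 in SWP. MYC MUT was called higher against MYC WT (log2 fold change 0.94 ± 0.31, SE, adjusted p = 0.0328) and against SWP (log2 fold change 1.59 ± 0.31, SE, adjusted p = 0.00205).

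INHBE, a subunit known from liver, varied widely within each line, at 34.9, 240.2 and 171 normalized counts in MYC WT, 12.9, 23.3 and 39.9 in MYC MUT and 19.5, 98.1 and 119 in SWP. Replicate 1 was the lowest in every line, and MYC WT and MYC MUT overlapped. The log2 fold change of -2.25 ± 0.77 in MYC MUT against MYC WT was called (adjusted p = 0.0381), but the call was lost in fits without replicate 2 (adjusted p = 0.142) or 3 (0.13) of MYC WT, without replicate 1 (0.132) or 2 (0.0849) of MYC MUT, and with eBayes run without a trend (0.0815). Between MYC MUT and SWP the log2 fold change was -1.38 ± 0.77 (adjusted p = 0.181), with an adjusted p of 0.00249 with the replicate block and of 0.0186 without replicate 1 of SWP. INHA and INHBC averaged between 10.7 and 29.7 normalized counts and were not called.

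Among the type I receptors, ACVR1C and ACVRL1 were called and the more abundant ones were not. ACVRL1 (chr12:51906908-51923361), also called ALK1 and known as the endothelial receptor for BMP9 and BMP10, stood at 48.2, 74.1 and 72.2 normalized counts in MYC WT, 114, 127 and 111 in MYC MUT and 20.6, 15.6 and 15.0 in SWP. The 3 lines did not overlap, with MYC MUT highest and SWP lowest. MYC MUT was 1.81 times the MYC WT mean (log2 fold change 0.87 ± 0.21, SE, adjusted p = 0.00794), SWP was 26.3% of it (log2 fold change -1.85 ± 0.21, SE, adjusted p = 0.000275), and MYC MUT was 6.87 times SWP (log2 fold change 2.72 ± 0.21, SE, adjusted p = 3.58e-06). The genes for BMP9 and BMP10, GDF2 and BMP10, had 0 reads in all libraries. VWF, the endothelial marker given above, was also called higher in MYC MUT against MYC WT (log2 fold change 2.91 ± 0.55, SE, adjusted p = 0.00172). PECAM1 and CDH5 were near 0, and the part of VWF here was not tested.

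ACVR1C, or ALK7, a receptor for activins and Nodal, stood at 269, 289.6 and 268 normalized counts in MYC WT, 775, 792 and 823 in MYC MUT and 309, 447 and 377 in SWP. MYC MUT lay above all others and SWP above MYC WT, again with no overlap. MYC MUT was 2.89 times MYC WT (log2 fold change 1.53 ± 0.13, SE, adjusted p = 7.7e-06) and 2.11 times SWP (log2 fold change 1.09 ± 0.13, SE, adjusted p = 6.73e-05). The smaller difference between SWP and MYC WT, 0.44 ± 0.13, had an adjusted p of 0.0512 with limma. It was called by edgeR (0.51, adjusted p = 0.0295), by DESeq2 (0.51, adjusted p = 0.00378) and without replicate 1 of SWP (0.58, adjusted p = 0.00555). The other 5 type I receptors, ACVR1, ACVR1B, BMPR1A, BMPR1B and TGFBR1, had log2 fold changes between -0.23 and 0.31 in MYC MUT and between -0.03 and 0.15 in SWP. Of these, ACVR1 had an adjusted p of 0.00778 in MYC MUT against MYC WT and stayed under the fold threshold.

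Of the members tested, TGFBR2 differed most between the edited lines. TGFBR2 (chr3:30606601-30694142), the type II receptor that binds TGF-beta, stood at 398, 478 and 374 normalized counts in MYC WT, 929.9, 1027 and 1034 in MYC MUT and 42.4, 56.5 and 68.0 in SWP. The 3 lines were far apart, with each MYC MUT library above each MYC WT library and each SWP library far below. MYC MUT was 2.39 times MYC WT (log2 fold change 1.26 ± 0.17, SE, adjusted p = 0.000162), and SWP was 13.3% of MYC WT (log2 fold change -2.90 ± 0.17, SE, adjusted p = 1.44e-06). The difference between MYC MUT and SWP was 17.9-fold (log2 fold change 4.16 ± 0.17, SE, adjusted p = 2.58e-08). For the 108 other tested genes within 10 Mb, medians against MYC WT were -0.03 (MYC MUT) and -0.05 (SWP) on the log2 scale. TGFBR1, its type I partner, which was not called, averaged 4357, 4921 and 4329 in MYC WT, MYC MUT and SWP, with adjusted p-values of 0.0649 and 0.959 against MYC WT.

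The other type II receptors, ACVR2A, ACVR2B and BMPR2, had log2 fold changes from -0.17 to 0.05 in MYC MUT and from -0.11 to 0.18 in SWP against MYC WT, and were not called. TGFBR3, or betaglycan, a co-receptor that presents TGF-beta to TGFBR2 and also binds inhibin, stood at 3570.3, 3858 and 3477 normalized counts in MYC WT, 1935, 2159 and 2328 in MYC MUT and 3036, 3225 and 3531 in SWP. It was lower in MYC MUT than in all other libraries, and SWP overlapped MYC WT. The MYC MUT mean was 58.9% of MYC WT (log2 fold change -0.77 ± 0.09, SE, adjusted p = 6.28e-05) and 65.6% of SWP (log2 fold change -0.61 ± 0.09, SE, adjusted p = 0.000276). On chromosome 1, the 135 tested genes within 10 Mb of TGFBR3 had a median of -0.29 in MYC MUT against MYC WT, and their part in the result was not tested. ENG, the related co-receptor outside the symbol rule, averaged 21.3, 18.7 and 7.98 in MYC WT, MYC MUT and SWP and was called lower in SWP (log2 fold change -1.29 ± 0.34, SE, adjusted p = 0.0347).

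**Figure D2:**
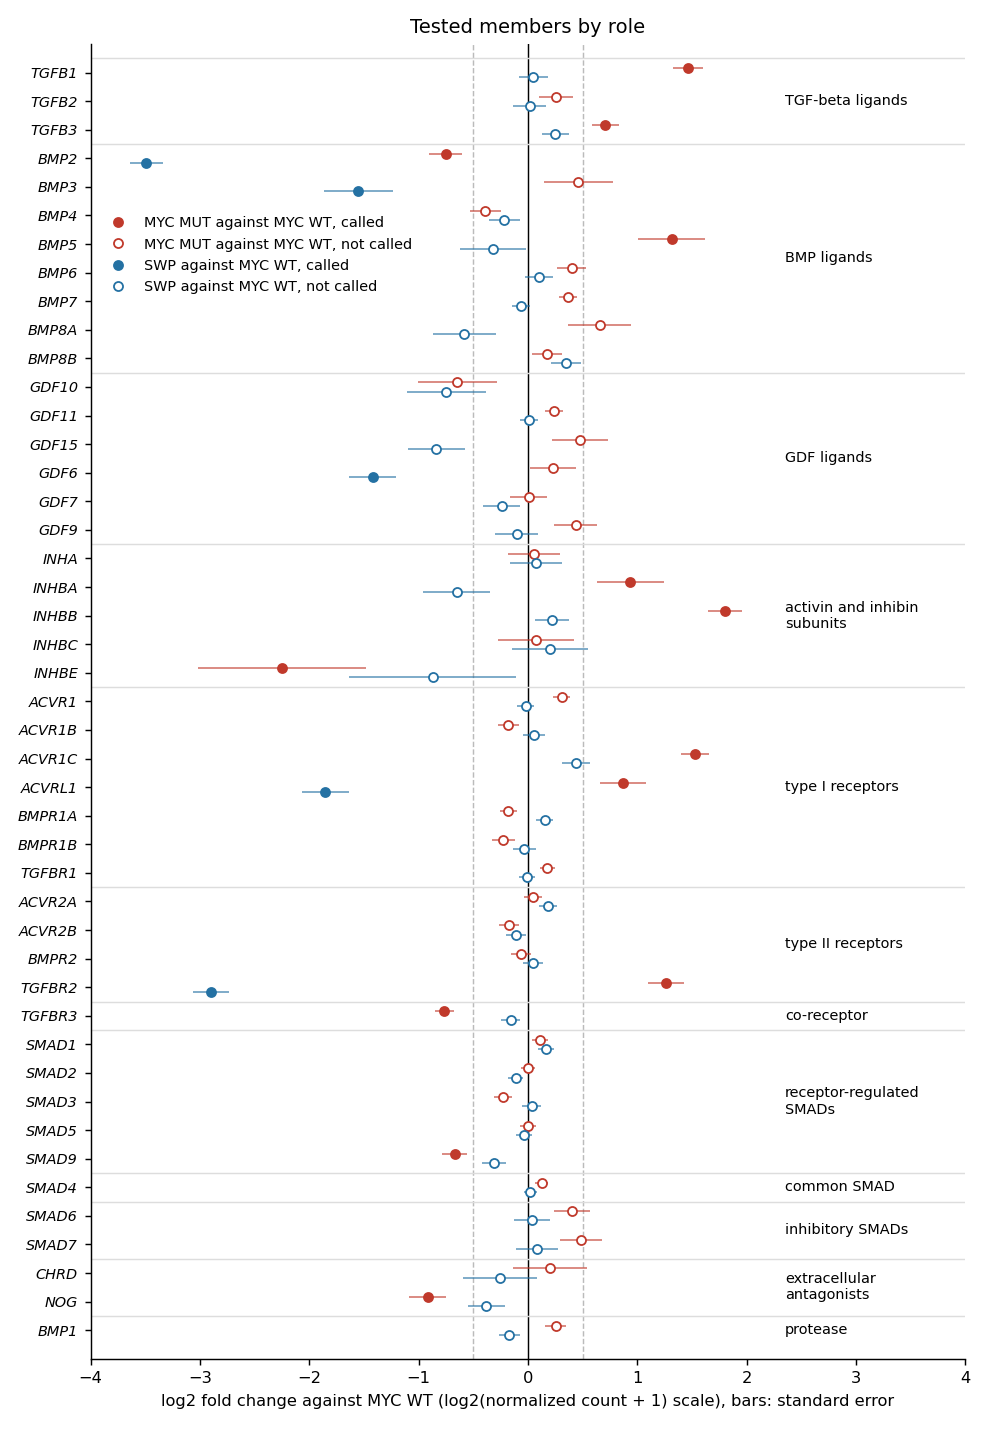
Log2 fold changes against MYC WT of the tested members reported here, grouped by role, for MYC MUT and SWP. Bars are standard errors, filled points were called, and dashed lines mark the fold threshold of 0.5. TGFBR2 and ACVRL1 stand to the right in MYC MUT and to the left in SWP, BMP2 stands to the left in both, and most SMADs stay between the dashed lines.

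Most SMADs differed little between the lines. SMAD9 (chr13:36844831-36920887), a BMP-activated SMAD, was the one SMAD called, at 2942, 3665 and 2806 normalized counts in MYC WT, 2273, 1811 and 1829 in MYC MUT and 2535, 2575 and 2433 in SWP. MYC MUT lay below all other libraries and SWP between MYC MUT and MYC WT, with no overlap. MYC MUT was 62.8% of MYC WT (log2 fold change -0.67 ± 0.11, SE, adjusted p = 0.000866). SWP gave -0.31 ± 0.11 against MYC WT (adjusted p = 0.118), and MYC MUT against SWP -0.36 ± 0.11 (adjusted p = 0.0274), under the fold threshold. Tested genes within 10 Mb of SMAD9 on chromosome 13, 125 in number, had a median of -0.40 in MYC MUT against MYC WT, and their part in the result was not tested.

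SMAD1, SMAD2, SMAD3, SMAD5 and SMAD4 had log2 fold changes between -0.23 (SMAD3) and 0.12 (SMAD4) in MYC MUT against MYC WT. SMAD3, a TGF-beta-activated SMAD, had an adjusted p of 0.0537 there and of 0.0309 against SWP. In SWP against MYC WT the values of these 5 ran from -0.11 (SMAD2) to 0.17 (SMAD1). The inhibitory SMAD6 and SMAD7, which TGF-beta family signals are known to induce, stood higher on average in MYC MUT. SMAD6 held 2176, 1870.0 and 1918 normalized counts in MYC WT, 3179.9, 2379 and 2392 in MYC MUT and 2683, 1691 and 1856 in SWP. SMAD7 held 911, 792 and 748 normalized counts in MYC WT, 1509.5, 977 and 1004 in MYC MUT and 1131, 717 and 790.0 in SWP. In both, MYC MUT did not overlap MYC WT but overlapped SWP, and the spread was wide. Replicate 1 was the highest library in every line for both genes. The log2 fold changes against MYC WT of 0.40 ± 0.16 and 0.48 ± 0.19 had adjusted p-values of 0.073 and 0.0662 with limma and were not called, while DESeq2 called SMAD7 and edgeR called neither.

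**Figure D3:**
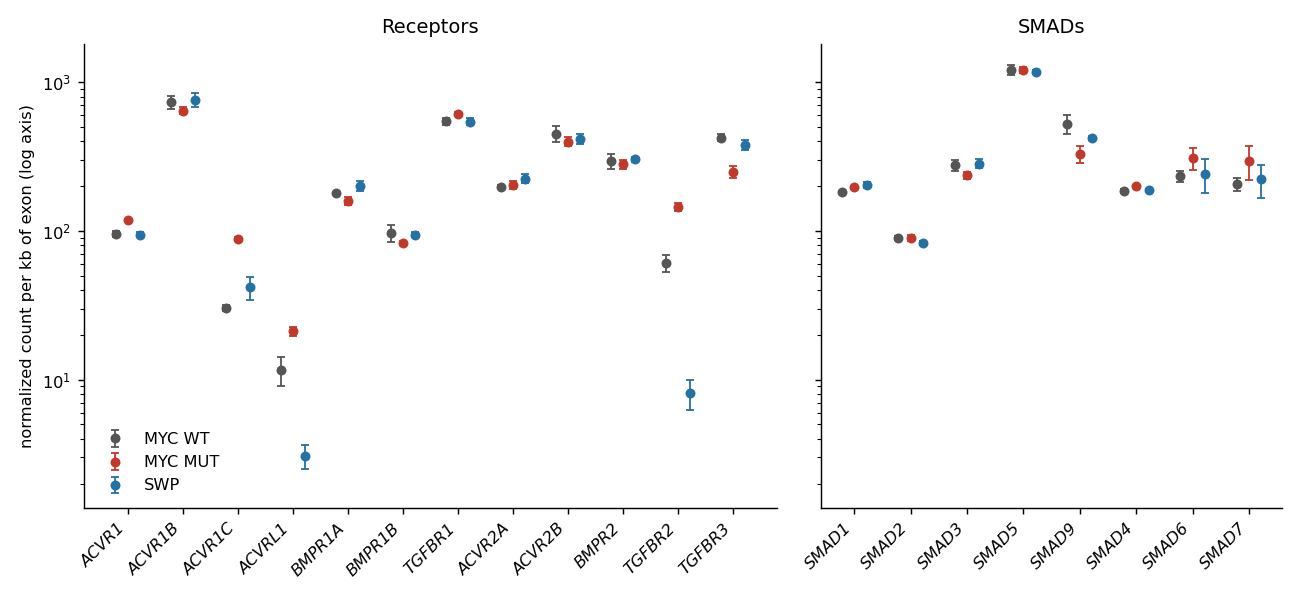
Normalized counts per kb of exon (log axis, mean with SD of 3 libraries) of the receptors and SMADs in the 3 lines. SMAD5 is the most abundant on this scale and the lines lie close together for most genes, apart from ACVR1C, ACVRL1, TGFBR2, TGFBR3 and SMAD9.

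On the scale of normalized counts per kb of exon, which allows levels to be compared between genes, SMAD5 and BMP7 led in MYC WT with 1212 ± 91.8 and 1044 ± 90.1 (SD, n = 3). They were followed by ACVR1B (732), TGFBR1 (545), SMAD9 (527), BMP6 (482) and ACVR2B (451). TGFBR2, at 60.8 ± 7.94 per kb in MYC WT, was the least abundant type II receptor in every line, and reached 146 ± 8.45 in MYC MUT and 8.12 ± 1.88 in SWP. Most called members were not among the abundant ones: ACVRL1 was at 11.7, BMP5 at 12.7, BMP3 at 20.0, INHBB at 28.9 and ACVR1C at 30.4 per kb in MYC WT. TGFB1 (421), TGFBR3 (424), SMAD9 and NOG (197) were the exceptions.

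The extracellular antagonist NOG, or noggin, which traps BMPs before they reach a receptor, was lower in MYC MUT. It stood at 306, 437 and 386 normalized counts in MYC WT, 191, 204 and 195 in MYC MUT and 223, 333 and 313 in SWP. MYC MUT lay below all other libraries, and SWP overlapped MYC WT. The mean was 52.3% of MYC WT (log2 fold change -0.92 ± 0.17, SE, adjusted p = 0.00148) and 68.0% of SWP (log2 fold change -0.53 ± 0.17, SE, adjusted p = 0.0276). The call against SWP was lost without any 1 of the 3 MYC MUT libraries (adjusted p of 0.0796, 0.0591 and 0.073 without replicates 1 to 3) and without replicate 2 (0.107) or 3 (0.0932) of SWP. CHRD, or chordin, averaged 259, 290.3 and 231 in MYC WT, MYC MUT and SWP, with adjusted p-values of at least 0.318 in the 3 comparisons. BMP1, a protease that cleaves procollagen and chordin and is no BMP ligand, had 0.42 ± 0.09 in MYC MUT against SWP (adjusted p = 0.00446), under the fold threshold.

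The 7 members not tested were BMP10, BMP15, GDF1, GDF2, GDF3, GDF5 and GREM1. The first 4 had 0 reads in all 9 libraries, which allows up to 3 reads per library for counting error alone. GDF1 overlaps CERS1 on the same strand, so that reads there can be counted for CERS1. GDF3 and GREM1 had at most 1 read per library, and GDF5 at most 9. GDF5 was thus the member just below the minimum mean of 10, with 5.74, 5.46 and 1.62 on average in MYC WT, MYC MUT and SWP, and INHBC, at 10.7, 11.2 and 12.7, was just above it.

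A list of 69 other genes of the pathway, chosen with earlier results of these data known, was examined beside the members. Of the 69 genes, 56 passed the minimum mean. MYC MUT differed from MYC WT in 20 of them (35.7%, against 21.4% of all genes), with 13 up and 7 down, and in SWP against MYC WT 2, ENG and DAND5, were lower (3.57%, against 5.13% of all genes). Of these, edgeR called ENG and DESeq2 neither. The 56 genes had a median log2 value of 0.09 in MYC MUT and -0.01 in SWP against MYC WT. Limma called 0 of them higher in SWP, with 4 (FBN1, ID1, LTBP3 and NRROS) at an unadjusted p under 0.05, 0 called by edgeR and 2, ID1 and NRROS, by DESeq2. Under the replicate block the count in SWP rose from 2 to 4, with NRROS (log2 fold change 0.81, adjusted p = 0.0084) and ID1 (0.64, adjusted p = 0.0086). Both SWP calls had means under 50 normalized counts, and leaving out replicate 2 or 3 of MYC WT, replicate 2 of MYC MUT or any SWP library brought their number to 0.

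Genes that store and release latent TGF-beta were called in 4 of 11 cases in MYC MUT (36.4%, against 21.4% of all genes). Among these, THBS1, a matrix protein that activates latent TGF-beta, rose (log2 fold change 1.37 ± 0.32, SE, adjusted p = 0.00641), as did LRRC32, the surface anchor of latent TGF-beta (log2 fold change 1.03 ± 0.25, SE, adjusted p = 0.00772), and LTBP2 (log2 fold change 0.98 ± 0.29, SE, adjusted p = 0.0192). FBN2, a fibrillin of the matrix, fell (log2 fold change -0.59 ± 0.13, SE, adjusted p = 0.00533). THBS1 stood at 17.4, 37.0 and 21.2 normalized counts in MYC WT, 57.3, 76.8 and 58.4 in MYC MUT and 25.2, 41.6 and 54.2 in SWP. Its MYC MUT libraries lay above all others.

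Of the 15 tested extracellular modulators and co-receptors, 3 rose and 3 fell in MYC MUT, where 11.3% of all genes were called upward and 10.1% downward. SOSTDC1, an antagonist of BMPs and Wnts, stood at 344, 478 and 414 normalized counts in MYC WT, 117, 157 and 132 in MYC MUT and 212, 386 and 423 in SWP. It was lower in MYC MUT than in every other library (log2 fold change -1.59 ± 0.24, SE, adjusted p = 0.000385), while SWP overlapped MYC WT. FST, or follistatin, which binds activins, stood at 52.3, 90.9 and 66.4 normalized counts in MYC WT, 164, 192 and 142 in MYC MUT and 56.1, 96.6 and 88.8 in SWP. It was higher in MYC MUT without overlap (log2 fold change 1.26 ± 0.25, SE, adjusted p = 0.00217), in the same line as the activin subunits INHBA and INHBB. BMPER, a BMP-binding protein, was lower (log2 fold change -0.94 ± 0.29, SE, adjusted p = 0.0262). Of 14 intracellular modulators, 2 (14.3%) were called, a share below that of all genes (21.4%). SKIL, a SMAD corepressor, rose (log2 fold change 0.52 ± 0.11, SE, adjusted p = 0.00316) and TRIM33, which binds SMAD proteins, fell (log2 fold change -0.53 ± 0.07, SE, adjusted p = 0.000263). The 156 other tested genes within 10 Mb of TRIM33 had a median of -0.23 in MYC MUT against MYC WT. Their part in the result was not tested.

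Genes known to respond to the pathway were called in 8 of 14 cases in MYC MUT, with 6 above and 2 below MYC WT and a median of 0.47 on the log2 scale over the 14. Of all genes, 21.4% were called, and their median was -0.0034. Many other signals regulate these genes too, and the cell-cycle inhibitors CDKN1A and CDKN2B are also known to be repressed by MYC. CDKN1A, the inhibitor p21, stood at 4501, 2858 and 3209 normalized counts in MYC WT, 9960.3, 8566 and 8056 in MYC MUT and 4488, 2947 and 3078 in SWP, and all MYC MUT values were the highest (log2 fold change 1.35 ± 0.18, SE, adjusted p = 0.000198). CDKN2B, the inhibitor p15, stood at 1158, 1096 and 1118 normalized counts in MYC WT, 544, 458 and 492 in MYC MUT and 1265, 1166 and 1147 in SWP, and all MYC MUT values were the lowest (log2 fold change -1.18 ± 0.09, SE, adjusted p = 3.96e-06). Both are known to be induced by TGF-beta, and here they moved in opposite directions. ID1, a BMP-induced inhibitor of differentiation, stood at 409, 397 and 367 normalized counts in MYC WT, 1241, 693 and 643 in MYC MUT and 881, 495 and 521 in SWP. It was higher in MYC MUT (log2 fold change 1.07 ± 0.25, SE, adjusted p = 0.00658), both edited lines lay above MYC WT without overlap, and replicate 1 was far above the other libraries in both edited lines. In MYC MUT against MYC WT, tested genes within 10 Mb had medians of 0.33 for ID1, -0.32 for CDKN2B and 0.06 for CDKN1A. Their part in these results was not tested. ID3, related to ID1, was not called, with 0.07 ± 0.25 in MYC MUT (adjusted p = 0.856), while ID2 was called (log2 fold change 0.93 ± 0.19, SE, adjusted p = 0.00287). Replicate 1 was the highest library in every line for ID1, ID2, ID3, CDKN1A and CDKN2B, but not for COL1A1 or DLX5. In SWP against MYC WT limma called 0 of the 14, with 3 at an unadjusted p under 0.05 (ID1 higher, COL1A1 and DLX5 lower), 0 by edgeR and 1, ID1, by DESeq2.

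**Figure D4:**
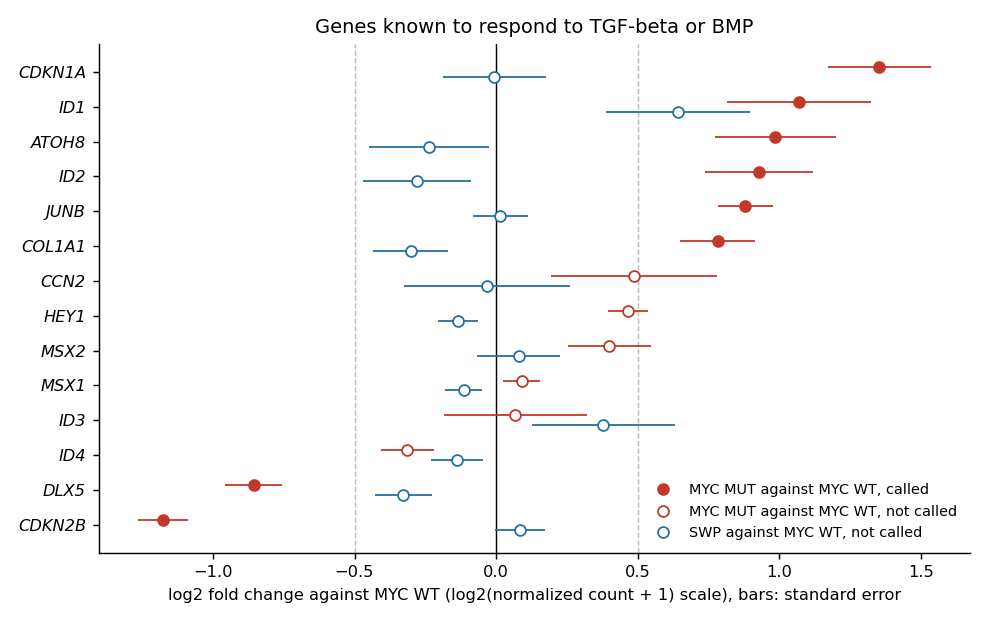
Log2 fold changes against MYC WT of the 14 tested genes known to respond to TGF-beta or BMP, for MYC MUT and SWP. Bars are standard errors, filled points were called, and dashed lines mark the fold threshold of 0.5. CDKN1A and CDKN2B lie at opposite ends in MYC MUT, and in SWP ID1 and ID3 lie farthest to the right while none is filled.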

How the data were processed

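Poly(A) RNA of 9 HEK293T libraries (3 MYC WT, 3 MYC MUT, 3 SWP) was sequenced. The authors used bwa mem, which does not split reads over introns, for alignment to hg38, treated duplicates with Picard and counted reads per GENCODE gene. The submitters' processing notes for the first-listed sample of the series name cutadapt 1.18 and BWA 0.7.17-r2188. Whether these notes hold for the 9 RNA libraries was not checked. The authors name a directional library kit, but the counting tool and its use of strand are not given in the sources used here. The deposited values are a signal in normalized counts, read counts divided by a DESeq2 size factor of each library. Whole reads were recovered from their steps in each library (tolerance 0.01).

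Of 58336 genes listed, 20884 had a mean of at least 10 over the 9 libraries and were tested by limma 3.58.1 (R 4.3.3, trended eBayes) after a log2 transform with a pseudocount of 1, in a single fit of the 9 libraries. P-values were adjusted over the tested genes by the Benjamini-Hochberg method, and calls needed a value below 0.05 with a change of more than 0.5 on the log2 scale. Since the values are not raw counts, edgeR 4.0.16 and DESeq2 1.42.0 on the recovered reads were alternatives, beside other pseudocounts, filters, scalings and thresholds, a replicate block, and each library left out. The fit was tested on simulated data. Positions and exon lengths came from GENCODE release 44, and 57754 listed genes matched.

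Members called in any comparison with a line mean of at least 50 were described in full, together with up to 3 genes per role of the pathway list, those with the largest change. Results of 1 member are not reported here. Members and lists were chosen with earlier results of these data known. Deviations from the line means of same-numbered libraries correlated at 0.555, 0.403 and 0.102 (SWP and MYC WT), 0.333, 0.241 and 0.232 (MYC MUT and SWP), and 0.328, 0.146 and 0.049 (MYC MUT and MYC WT). The first 2 comparisons passed a limit of 0.1 for pairing, set on the data and not on the labels. Replicate 3 of SWP correlated more with a MYC WT library of another number (0.263). Pairing is thus not shown for SWP and MYC WT, and calls that only the block gave there rest on it. Depth was 65024354 to 98497026 reads per library, and intervals and floors cover counting error only.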

Additional observations from a re-analysis of the deposited data

Results flagged for a closer look

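For 14 members the effects in MYC MUT and in SWP, each against MYC WT, differed by the direct test of MYC MUT against SWP (limma, Benjamini-Hochberg adjustment, calls as in the report). The 12 with a mean of at least 50 normalized counts in 1 line are given here, and the other 2 were INHBA (1.59) and BMP8A (1.24). The difference was largest for TGFBR2, at 4.16 on the log2 scale, followed by BMP2 (2.74) and ACVRL1 (2.72). TGFBR2 and ACVRL1 moved in opposite directions from MYC WT in the edited lines, and BMP2 was lower in both. BMP3 (2.01) and GDF6 (1.65) differed, with SWP low while MYC MUT overlapped MYC WT. BMP5 (1.63), INHBB (1.58), TGFB1 (1.42) and ACVR1C (1.09) were high in MYC MUT. GDF15 differed by 1.32, with MYC MUT above and SWP below the MYC WT mean. TGFBR3 (-0.61) and NOG (-0.535) were lower in MYC MUT. With 3 libraries per line, single libraries were not tested for standing apart. Clone and edit cannot be told apart in any of these differences.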

How the results depend on the processing

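Over 20 alternatives for each of the 15 members described in full in 3 comparisons, 881 of 900 values kept direction and side of the thresholds. Of the rest, 10 lost a call (INHBE in MYC MUT against MYC WT, adjusted p from 7.94e-05 to 0.142 over its alternatives, and NOG in MYC MUT against SWP, from 0.00235 to 0.107). A call was gained by 7 (GDF15 and ACVR1C in SWP against MYC WT, INHBE in MYC MUT against SWP). In 2 the sign turned, both for the uncalled TGFB1 in SWP against MYC WT, at -0.0053 without SWP replicate 2 and -0.082 without SWP replicate 3 (from -0.082 to 0.231 with 1 library left out), and the cause was not tested. A fold threshold of 1 left 6 members called in MYC MUT against MYC WT, and dropping the threshold gave 22 in MYC MUT against SWP, by construction. Leaving out 1 library gave 11 to 13 members in MYC MUT against MYC WT, 5 to 7 in SWP against MYC WT and 13 to 18 in MYC MUT against SWP. The replicate block gave 13, 6 and 17 members, and for MYC MUT against MYC WT, where replicate 3 missed the limit for pairing, 21 other pathway genes instead of 20, AMHR2 being added. For SWP against MYC WT the block gave 4 other pathway genes instead of 2, and, beside the calls named in the report, it added CCN2 and THBS1 in MYC MUT against SWP and changed no other call among the genes reported. Other pathway genes called in MYC MUT against MYC WT numbered 7 with a fold threshold of 1 and 17 to 22 with 1 library left out. The 2 called in SWP became 1 with a pseudocount of 0.1, equal totals, equal upper quartiles, only the 2 lines compared, edgeR or a fold threshold of 1, became 0 with all genes with any count or a minimum mean of 50, and 0 to 2 with 1 library left out. DAND5 and ENG lie below a mean of 50, and otherwise the cause was not tested. No alternative varied the depth.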
